A study of Saccharomyces cerevisiae with 30 samples.

Results

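Budding yeast takes up inorganic phosphate through a small family of transporters and stores much of it in the vacuole as polyphosphate, and 10 genes of this system were followed here: PHO84, PHO89, PHO87, PHO90, PHO91, SPL2, VTC1, VTC3, VTC4 and PHM6. They were chosen by name, but with earlier results of these data known, so their ranks and counts below are descriptions. All 10 were found among the 6101 genes of each of the 2 deposited expression tables. The 30 RNA libraries came from strain BY4741 and from strains mutated in SAGA, a coactivator complex that acetylates histones at promoters. Cells in YPD (rich medium with glucose) at an OD600 of 0.7 were moved for 30 min into YP medium with 2% glucose or with 2% sucrose. The Ada3 set, 12 libraries in its own table, held wild type (WT) and Ada3-3KR, labelled as mutated in the acetylation of Ada3, a SAGA subunit, each in both sugars. The bromodomain set, 18 libraries in a second table, held its own WT together with Gcn5m and Spt7m, labelled as mutated in the bromodomain, a module that binds acetylated lysine, of Gcn5 and of Spt7, other SAGA subunits, again in both sugars. Every group of a strain and a sugar had 3 libraries. All 3 mutants were labelled as BY4741 derivatives, and the labels used here give neither the residues changed nor the number of clones. Whether replicates came from separate cultures is not given either, and p-values then reflect only how these libraries spread, which can be technical.

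When phosphate is scarce, the cyclin and kinase pair Pho80 and Pho85 is held back by its inhibitor Pho81, the transcription factor Pho4 stays in the nucleus, and Pho4 with Pho2 switches on the phosphate genes. PHO84, which encodes the main high-affinity, proton-coupled phosphate transporter, is the best known target of that switch, and SAGA is known as a coactivator of phosphate genes. High-affinity uptake replaces low-affinity uptake in such cells, and the vacuolar transporter chaperone (VTC) complex makes polyphosphate from ATP and moves it into the vacuole.

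PHO84 (YML123C, chromosome XIII, 24037 to 25800) and PHO89 (YBR296C, chromosome II, 796798 to 798522), whose product couples phosphate uptake to sodium, encode the high-affinity transporters. PHO87 (YCR037C, chromosome III, 194414 to 197185) and PHO90 (YJL198W, chromosome X, 60844 to 63489) encode low-affinity plasma membrane transporters, and PHO91 (YNR013C, chromosome XIV, 649028 to 651712) encodes a related exporter of phosphate from the vacuole. SPL2 (YHR136C, chromosome VIII, 374654 to 375100) encodes a small protein that restrains low-affinity uptake. VTC4 (YJL012C, chromosome X, 411234 to 413399) encodes the polymerase subunit of the VTC complex, VTC1 (YER072W, chromosome V, 302806 to 303195) its small membrane subunit, and VTC3 (YPL019C, chromosome XVI, 514511 to 517018) an accessory subunit that takes the place of Vtc2. PHM6 (YDR281C, chromosome IV, 1022007 to 1022321) is a phosphate-regulated gene of unknown function. All coordinates are those of build R64 and span the coding sequence. None of the 10 genes had a copy elsewhere in the genome at 90% identity over 50% of its length; PHO87 and PHO90 matched each other at 71.4% over 1952 bases. PHO84 is overlapped along 100% of its length by the antisense RNA gene YNCM0001W, which is not among the genes of the tables used here, and with no strand setting given in the sources used here, sense and antisense reads at PHO84 cannot be told apart.

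Most of these genes shared letters in their upstream sequence. Since several members, PHO84 and PHM6 among them, are known for their regulation by phosphate, a high share of Pho4 cores is partly built into the choice of genes, and the shares below are a description. The hexamer CACGTG, the core of the stronger form of the Pho4 site, which the factor Cbf1 also binds, lay within the 500 bases before the start codon of 9 of the 10 genes, PHO90 being the exception, while it lay in 6.23% of the same windows of 6000 genes. At least 2 such hexamers lay before PHO84, SPL2, VTC3 and VTC4, 4 of 10 genes, against 0.683% of all windows. The weaker form CACGTT, searched on both strands, lay before PHO84, PHO89, VTC3 and PHM6, against 16% of all windows. A core of the glucose repressor Mig1 (CCCCAC, the variant CCCCAG, the variant CCCCGC or the variant CCCCGG, on either strand) lay before PHO84, PHO89, PHO90 and PHO91, against 22.7% of all windows, and it overlapped a CACGTG at PHO84 and the CACGTT at PHO89. The windows of PHO84, PHO87 and VTC1 also hold parts of neighbouring genes. The stretches below, read from the RefSeq genome of build R64 on the coding strand, show the upstream matches of both high-affinity transporter genes, of VTC3 and of PHM6, all of which moved with sugar or strain in the results that follow; capitals mark CACGTG or the weaker form, which reads AACGTG where it lies on the opposite strand.
PHO84, chrXIII:26042-26251, minus strand: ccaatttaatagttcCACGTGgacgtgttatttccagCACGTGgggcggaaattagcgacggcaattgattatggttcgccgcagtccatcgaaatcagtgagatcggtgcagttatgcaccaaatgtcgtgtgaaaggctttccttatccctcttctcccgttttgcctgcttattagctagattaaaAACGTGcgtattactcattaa
PHO89, chrII:798825-799000, minus strand: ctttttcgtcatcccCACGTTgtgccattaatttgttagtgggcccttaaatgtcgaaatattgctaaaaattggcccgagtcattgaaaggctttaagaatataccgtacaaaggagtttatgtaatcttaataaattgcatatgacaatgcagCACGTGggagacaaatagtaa
VTC3, chrXVI:517276-517378, minus strand: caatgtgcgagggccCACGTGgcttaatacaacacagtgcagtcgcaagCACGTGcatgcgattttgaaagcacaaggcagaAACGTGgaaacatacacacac
PHM6, chrIV:1022580-1022770, minus strand: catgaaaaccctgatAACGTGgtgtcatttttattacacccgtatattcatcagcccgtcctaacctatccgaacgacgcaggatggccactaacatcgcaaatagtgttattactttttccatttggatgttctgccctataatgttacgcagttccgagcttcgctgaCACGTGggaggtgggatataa
The CACGTG pair of PHO84 begins 436 and 414 bases before its start codon, that of VTC3 345 and 311 bases, and that of VTC4 125 and 113 bases. PHO89 has its only CACGTG at 323 bases, and PHM6 at 279 bases. These matches are letters in a window and do not show that a factor was bound.

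**Figure D1:**
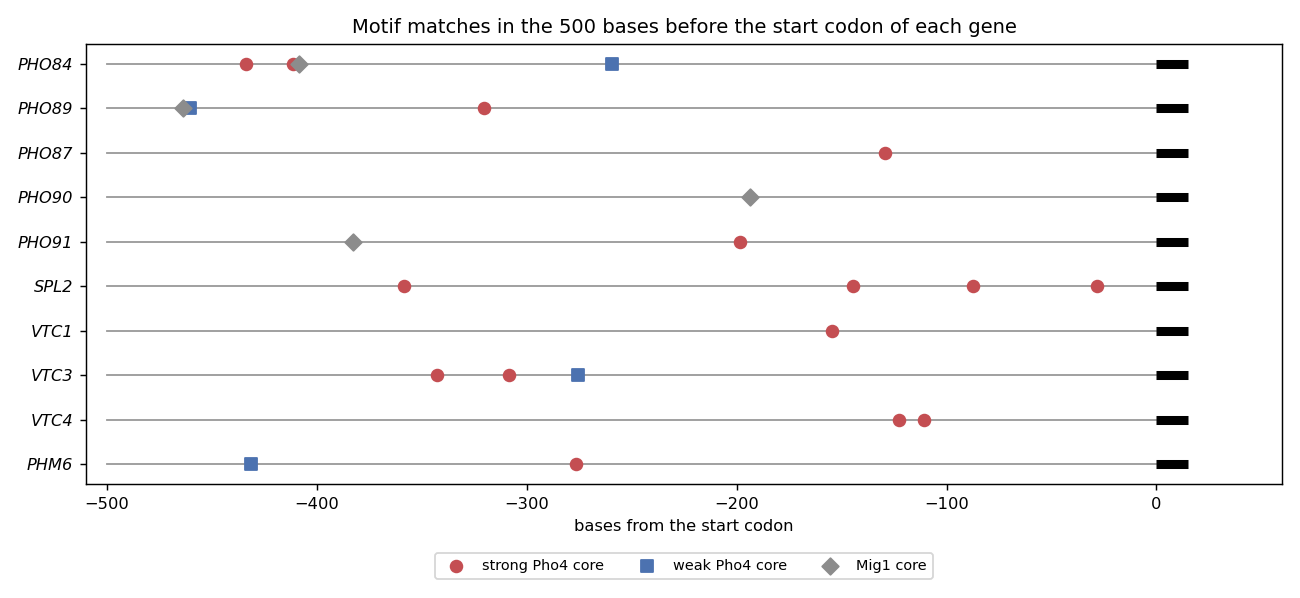
Positions of motif matches (x axis, bases from the start codon; y axis, gene) in the 500 bases before each of the 10 genes. Circles are CACGTG (strong Pho4 core), squares CACGTT (weak Pho4 core) and diamonds the Mig1 core; 9 genes have at least 1 circle, and PHO90 has only a diamond.

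Values are FPKM (fragments per kilobase of gene, scaled by the authors to the size of the library), whose sum per library was between 1152780 and 1288949, and the sequencing depth behind them is unknown. Pairs of libraries within a group had a correlation over genes of 0.995 to 0.997 (Ada3 set) or 0.994 to 0.998 (bromodomain set). The mutations change proteins, so RNA levels of NGG1 (the gene of Ada3), GCN5 and SPT7 do not check the genotypes; GCN5 had 17.1 to 21.9 FPKM in Gcn5m and 21.6 to 27.3 in Spt7m against 26.4 to 35.2 in their WT. BY4741 is a MATa strain that lacks the URA3, LEU2 and MET17 genes. LEU2 was listed at no more than 0.136 FPKM and MET17 at 0 in all 30 libraries. HIS3, also read as a strain check, had 71.6 to 154 FPKM in the Ada3 set and 56.8 to 119.9 in the bromodomain set. URA3 had at most 0.398 FPKM in the Ada3 set and 2.30 in the bromodomain WT, but 223 to 444 in Gcn5m and 7079 to 11463 in Spt7m, so in the bromodomain set it moved with the strains compared below; its part in the differences was not tested. The 6 MATa markers summed to 7067 to 9799 FPKM in the Ada3 WT and 6057 to 6562 in Ada3-3KR, and to 8785 to 10804 in the bromodomain WT, 5426 to 7596 in Gcn5m and 5917 to 7900 in Spt7m. Of the 5 MATalpha markers, the alpha-factor gene MF(ALPHA)1 (at most 1.16 FPKM) and the receptor gene STE3 (at most 3.99) were at or near 0. The remaining markers were not. In the Ada3 set AFB1 had 45.03 to 87.6 FPKM, SAG1 22.6 to 29.4 and MF(ALPHA)2 9.25 to 12.97. In the bromodomain set AFB1 had 35.9 to 111.1 FPKM, SAG1 16.2 to 31.7 and MF(ALPHA)2 6.57 to 11.37. The 5 together summed to 111 to 129 FPKM in the Ada3 WT and 80.8 to 95.4 in Ada3-3KR. Their sum was 119.6 to 153 in the bromodomain WT, 62.2 to 80.1 in Gcn5m and 78.1 to 99.3 in Spt7m. Both sums were lower in the mutants, but single markers did not all follow. By the test given below, 3 of the 6 MATa markers were called higher and 3 lower in Ada3-3KR than in WT in sucrose (all genes: 33.8% and 22.2%). In Spt7m against WT in sucrose, 1 of 4 tested MATalpha markers, SAG1, was called higher and 2 lower (all genes: 28.8% and 41.5%). The part of these marker differences in the results was not tested. In bulk RNA, fewer cells with a transcript and less of it per cell cannot be told apart.

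In WT cells the members ranged from abundant to scarce transcripts, and since FPKM is scaled to gene length their levels are set side by side. Such an order between genes is rough. Lengths run from 315 bases (PHM6) and 390 (VTC1) to 2772 (PHO87), and antisense reads may be included at PHO84. VTC1 was the highest in WT in glucose, at 1417, 1396 and 1345 FPKM in replicates 1, 2 and 3 of the Ada3 set and 1190.4, 1104 and 1138 in the bromodomain set. PHO84 came next in glucose in both sets, and SPL2, at 11.3 to 13.4 FPKM over all WT libraries in glucose, was the lowest. Between them in the Ada3 set lay VTC4, PHO89, VTC3, PHO91, PHO90, PHO87 and PHM6, in that order of means, of which PHO89 and VTC3 overlapped, as did PHO87 and PHM6. In the bromodomain set the order was the same save that VTC3 (179 to 188 FPKM) came before PHO89 (178 to 181), again with overlap. VTC1 remained first in all 10 groups, although in bromodomain WT in sucrose its libraries overlapped those of PHO84. The 2 tables were made separately, so levels were not tested between sets.

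**Figure D2:**
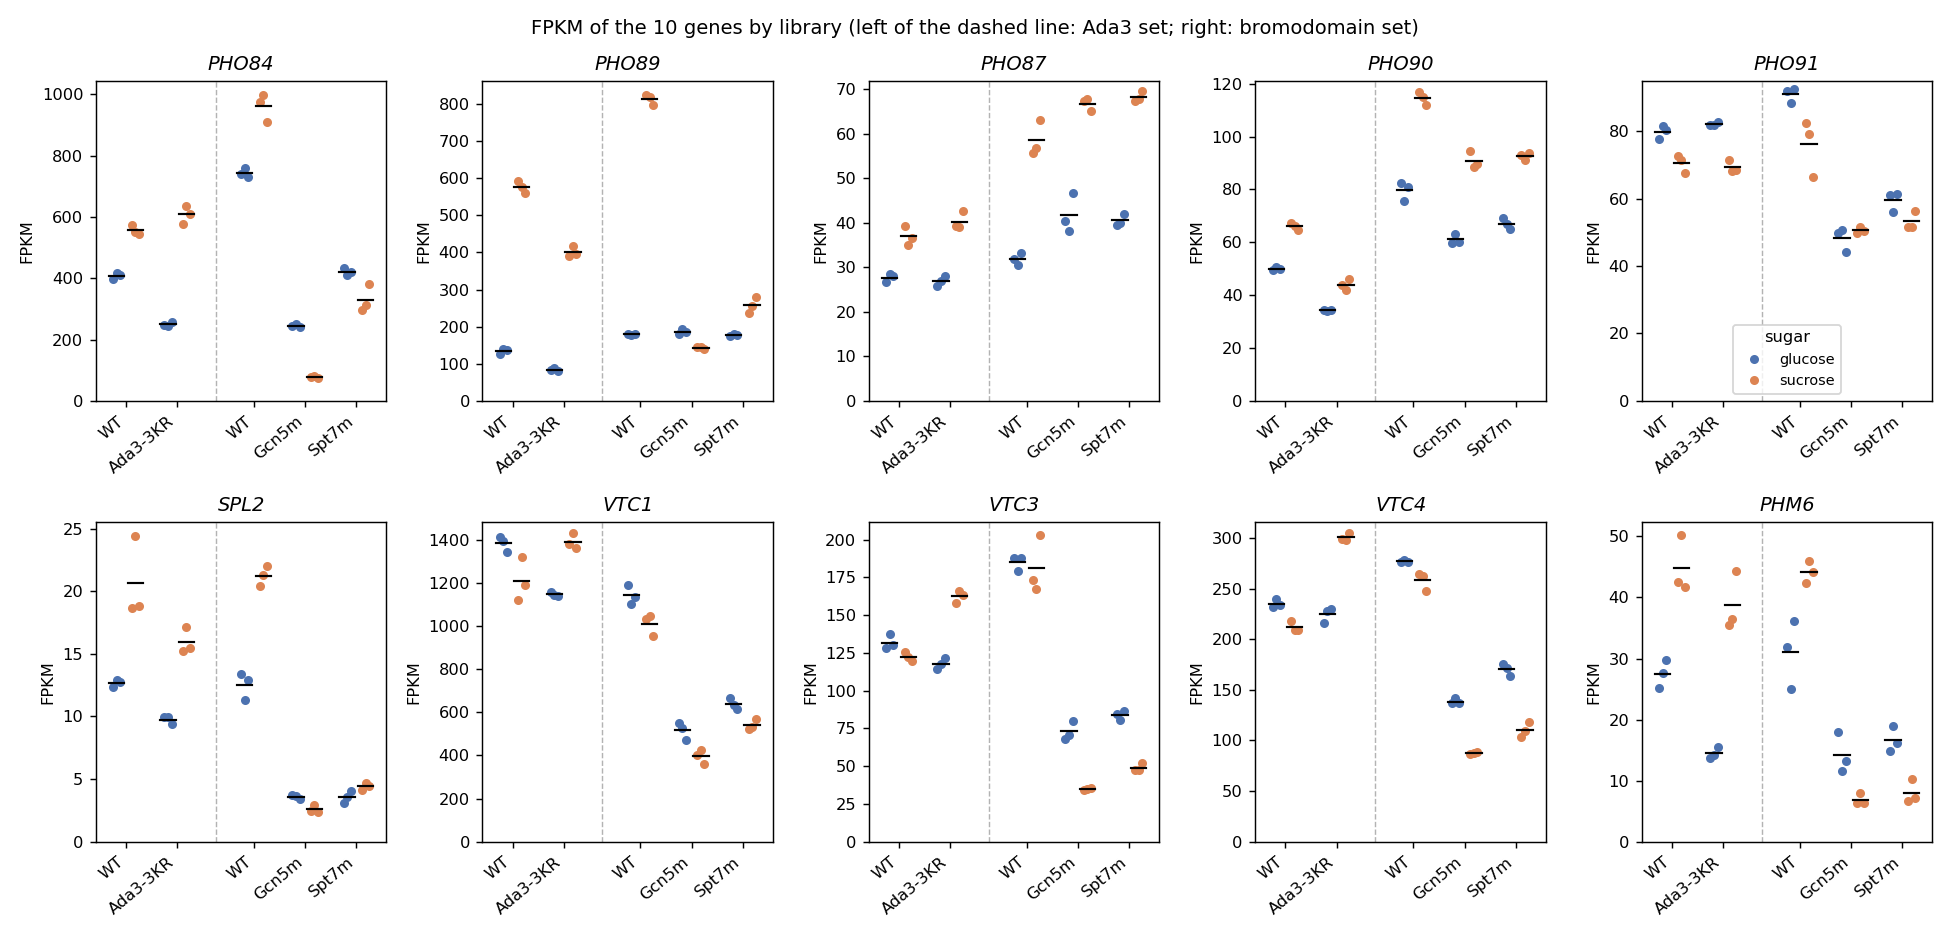
FPKM (y axis, linear, from 0) of each of the 10 genes in every library, by strain (x axis) and sugar (colour), with bars at the mean of 3 libraries. PHO89 in sucrose stood at 561 to 592 FPKM in the Ada3 WT, 798 to 825 in the bromodomain WT and 139 to 146 in Gcn5m.

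In WT, the change to sucrose moved the plasma membrane transporter genes upward, the sodium-coupled PHO89 far more than the others, while PHO91 and the VTC genes stayed near their glucose levels or fell slightly. Changes are given as log2 change ± SE on the log2(FPKM + 1) scale, from limma fitted over all tested genes of a set, 3 libraries against 3. A change was called where the p adjusted by the Benjamini-Hochberg method was under 0.05. Counts of changes of at least 2-fold use a log2 change of at least 1 in size on that scale. Folds stated in mean FPKM do not use it. PHO89 had 126, 140.2 and 136 FPKM in WT in glucose of the Ada3 set and 592, 575 and 561 in sucrose, a rise of 2.10 ± 0.05. In the bromodomain WT it had 181, 178 and 181 FPKM in glucose and 825, 818 and 798 in sucrose, a rise of 2.17 ± 0.05. The groups lay far apart in both sets, by 4.30-fold and 4.51-fold in mean FPKM. PHO84 rose less, from 399, 418 and 409.6 to 573, 552 and 544 FPKM in the Ada3 set (0.44 ± 0.04) and from 742, 759 and 729 to 974, 997 and 910.2 in the bromodomain set (0.37 ± 0.07). No sucrose library of PHO84 overlapped a glucose library in either WT, yet the bromodomain call was lost when libraries were rescaled to a common median (0.12, adjusted p = 0.137). With these changes the ratio of PHO84 to PHO89 in FPKM went from 3.06 ± 0.10 (SD, n = 3) to 0.966 ± 0.006 in the Ada3 set and from 4.13 ± 0.12 to 1.18 ± 0.04 in the bromodomain set.

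The low-affinity genes PHO87 and PHO90 also rose in WT. PHO87 went from 26.6 to 28.4 FPKM in glucose to 35.0 to 39.4 in sucrose in the Ada3 set (0.40 ± 0.06) and from 30.5 to 33.2 to 55.6 to 63.2 in the bromodomain set (0.86 ± 0.06). PHO90 went from 49.6 to 50.8 FPKM to 64.7 to 67.3 (0.39 ± 0.04) and from 75.7 to 82.4 FPKM to 112 to 117 (0.52 ± 0.04). PHO91, the vacuolar exporter gene, fell in both sets, by 0.18 ± 0.04 from 77.7 to 81.6 FPKM in glucose to 67.6 to 72.7 in sucrose, and by 0.26 ± 0.07 from 88.5 to 92.5 to 66.5 to 82.5. SPL2 rose from 12.3, 12.9 and 12.8 to 18.6, 24.5 and 18.8 FPKM in the Ada3 set (0.65 ± 0.09) and from 13.4, 11.3 and 12.9 to 20.5, 21.3 and 22.0 in the bromodomain set (0.72 ± 0.09). Thus the genes of low-affinity transporters and the gene of their restraining protein were all higher in sucrose, with no overlap between sugars. PHM6 rose as well, by 0.68 ± 0.09 and 0.51 ± 0.16; in the bromodomain set its glucose libraries varied from 25.02 to 36.1 FPKM, and without WT in glucose replicate 2 the call was lost (0.37, adjusted p = 0.0622), as it was after quantile normalization (0.28, adjusted p = 0.150) and after median rescaling (0.26, adjusted p = 0.174).

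Among the polyphosphate synthesis genes, small falls were seen in WT in sucrose. VTC4 had 231, 239 and 234 FPKM in glucose and 218, 209 and 209 in sucrose in the Ada3 set (-0.15 ± 0.03). VTC1 fell by 0.20 ± 0.05 and VTC3 by 0.10 ± 0.04 (adjusted p = 0.0418) in that set. The call of VTC3 there was lost without WT in glucose replicate 2 (-0.07, adjusted p = 0.164) or 3 (-0.11, adjusted p = 0.0635) and without WT in sucrose replicate 2 (-0.10, adjusted p = 0.0847) or 3 (-0.09, adjusted p = 0.141). In the bromodomain WT, VTC1 fell by 0.18 ± 0.06, a call lost without WT in glucose replicate 1 (-0.15, adjusted p = 0.0775) or WT in sucrose replicate 3 (-0.14, adjusted p = 0.0939). VTC3 (-0.03 ± 0.07, adjusted p = 0.666) and VTC4 (-0.10 ± 0.04, adjusted p = 0.0533) did not pass there, though VTC4 did without WT in sucrose replicate 1 (-0.12, adjusted p = 0.0476). After quantile normalization both passed, VTC3 at -0.18 (adjusted p = 0.0300) and VTC4 at -0.29 (adjusted p = 1.70e-05). Median rescaling gave calls to both as well, VTC3 at -0.29 (adjusted p = 0.000862) and VTC4 at -0.35 (adjusted p = 1.57e-06). In all, 6 members rose and 4 fell in the Ada3 WT, where 32.7% of all 5830 genes tested were called higher and 13.9% lower, and 6 rose and 2 fell in the bromodomain WT, where 50.9% and 15.7% of 5841 genes were. A rise of at least 2-fold was rarer, and PHO89 alone among the members had it, against 1.58% of genes in the Ada3 set and 3.51% in the bromodomain set. The median change was 0.40 over the members and 0.08 over all genes in the Ada3 set, and 0.44 and 0.17 in the bromodomain set.

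The background split of the sucrose effects depends on scaling. With median rescaling, the median change of all genes in WT went from 0.08 to -0.05 in the Ada3 set and from 0.17 to -0.08 in the bromodomain set, and the counts of genes called higher and lower went from 1906 and 809 to 1032 and 1784, and from 2975 and 919 to 1309 and 2243. Relative to the median gene, PHO89 rose by 2.02 and 1.99, PHO84 by 0.37 and 0.19, SPL2 by 0.58 and 0.55, PHO90 by 0.32 and 0.35, and PHO87 by 0.33 and 0.68 in the Ada3 and bromodomain WT, while VTC4 stood at -0.22 and -0.27. Large rises such as that of PHO89 were therefore little touched, and small ones such as that of PHO84 in the bromodomain WT rest on the scaling.

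Ada3-3KR had less RNA of most members than WT in glucose, and in sucrose this difference stayed at PHO89, PHO90 and SPL2 but not at PHO84, VTC1 and VTC3. PHO84 had 248, 245 and 256 FPKM in Ada3-3KR in glucose, all below the 399 to 418 of WT (-0.71 ± 0.04). PHO89 (-0.67 ± 0.05), PHO90 (-0.53 ± 0.04), SPL2 (-0.35 ± 0.09), VTC1 (-0.27 ± 0.05) and VTC3 (-0.16 ± 0.04) were lower too. PHM6 had the largest difference of the members, 13.6, 14.2 and 15.5 FPKM against 25.1, 27.6 and 29.7 in WT (-0.88 ± 0.09). The vacuolar exporter gene PHO91 (0.04 ± 0.04, adjusted p = 0.385), PHO87 (-0.04 ± 0.06, adjusted p = 0.574) and VTC4 (-0.06 ± 0.03, adjusted p = 0.102) did not pass. VTC4 was called lower, though, after quantile normalization (-0.19, adjusted p = 9.50e-05) and after median rescaling (-0.12, adjusted p = 0.00248). In all, 7 of 10 members were lower and 0 higher, where 22.1% of all genes were called lower and 40.2% higher, and the median difference was -0.31 over the members and 0.09 over all genes.

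In sucrose, Ada3-3KR kept the lower levels of PHO89 and PHO90 and reached WT or higher levels at PHO84 and the VTC genes. PHO89 had 392, 417 and 395 FPKM against 592, 575 and 561 in WT (-0.52 ± 0.05), and PHO90 had 43.7, 41.9 and 46.1 against 67.3, 66.1 and 64.7 (-0.58 ± 0.04), with no overlap for either gene. SPL2 was lower by 0.34 ± 0.09. PHO84, at 579, 637 and 611 FPKM, was above all 3 WT libraries by a small step (0.13 ± 0.04), a call lost when replicate 2 of Ada3-3KR in sucrose was left out (0.096, adjusted p = 0.0537). VTC4 had 299, 298 and 305 FPKM against 209 to 218 in WT (0.50 ± 0.03), VTC3 had 158, 166 and 163 against 119 to 126 (0.40 ± 0.04), and VTC1 was higher by 0.20 ± 0.05. All 3 VTC genes among the members were thus higher in Ada3-3KR in sucrose. PHM6 (-0.21 ± 0.09, adjusted p = 0.0764) passed, among the libraries left out, only without replicate 3 of Ada3-3KR in sucrose (-0.30, adjusted p = 0.0131), and PHO87 (0.12 ± 0.06, adjusted p = 0.0882) only without replicate 1 of WT in sucrose (0.16, adjusted p = 0.0343). PHO91 did not pass either (-0.03 ± 0.04, adjusted p = 0.570). With 4 members higher and 3 lower, against 33.8% and 22.2% of all genes, the members as a list sat near the background, and their median difference was 0.05, as it was over all genes.

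Within Ada3-3KR itself, sucrose raised 9 of the 10 members and lowered PHO91 (-0.24 ± 0.04), where 32.9% of all genes were called higher and 17.7% lower (1414 higher and 1535 lower with median rescaling, against 1920 and 1034). Rises of at least 2-fold were seen in PHO89 (2.24 ± 0.05), PHM6 (1.36 ± 0.09) and PHO84 (1.28 ± 0.04), 3 of 10 members against 1.27% of all genes. Relative to the median gene these were 2.18, 1.30 and 1.22. The VTC genes, which fell slightly in WT, rose in the mutant by 0.28 ± 0.05 (VTC1), 0.46 ± 0.04 (VTC3) and 0.42 ± 0.03 (VTC4). The test of that difference, the sucrose effect in Ada3-3KR minus that in WT, was called for PHO84 (0.84 ± 0.05, adjusted p = 5.04e-08), VTC4 (0.57 ± 0.05, adjusted p = 5.47e-07), VTC3 (0.56 ± 0.05, adjusted p = 3.22e-06), VTC1 (0.47 ± 0.07, adjusted p = 7.49e-05) and PHM6 (0.67 ± 0.13, adjusted p = 0.00120). These 5 were higher and 0 lower, against 17.2% and 21.6% of all genes (1326 called higher and 1027 lower with median rescaling, against 1002 and 1262). PHO89, whose rise was large in both strains, did not pass (0.14 ± 0.06, adjusted p = 0.0964), though it did without Ada3-3KR in glucose replicate 2 (0.18, adjusted p = 0.0489) or WT in glucose replicate 1 (0.19, adjusted p = 0.0253). It also passed after quantile normalization (0.18, adjusted p = 0.0396) and after median rescaling (0.20, adjusted p = 0.0152). For SPL2 the difference was 0.00 ± 0.13, for PHO90 -0.05 ± 0.06, for PHO91 -0.07 ± 0.06 and for PHO87 0.16 ± 0.08, and none of these passed.

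**Figure D3:**
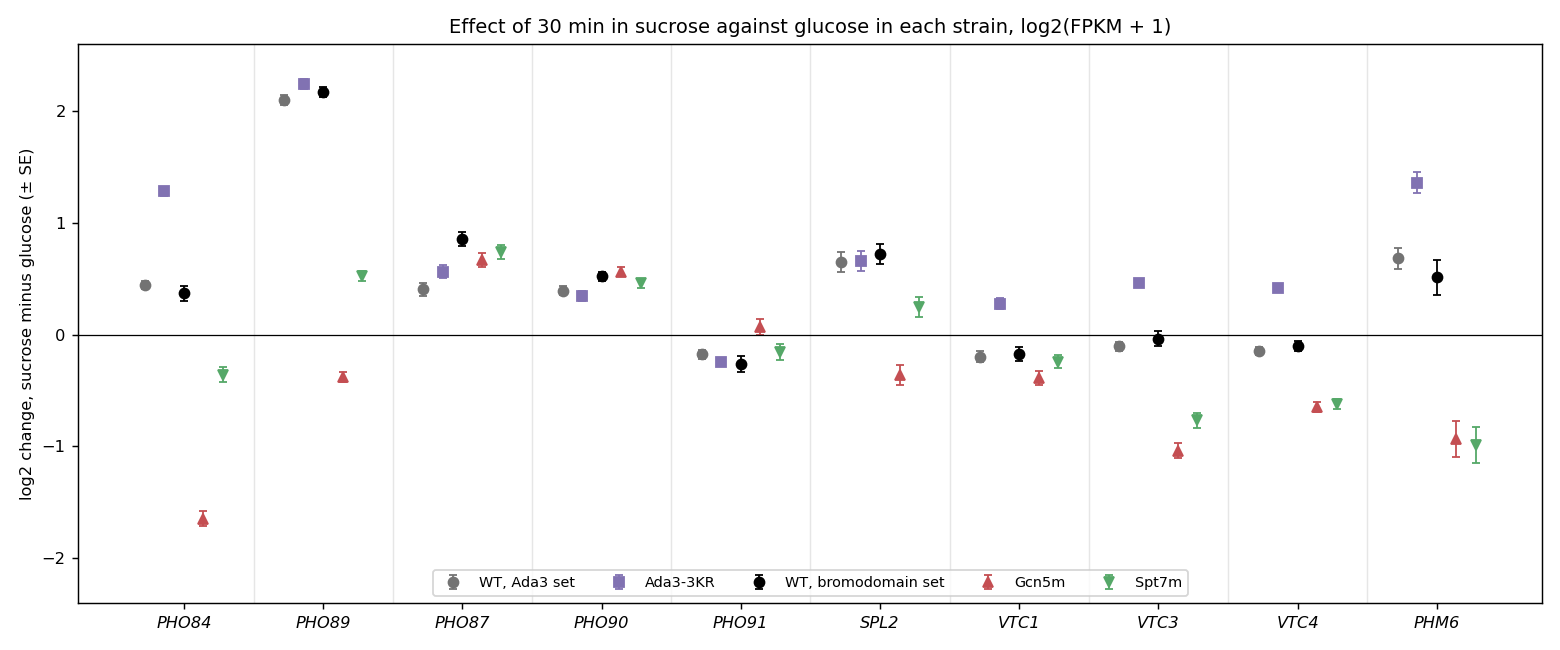
Log2 change of FPKM + 1 between sucrose and glucose (y axis, ± SE, 3 libraries against 3) for each gene (x axis) in the 5 strain groups. PHO84 rose in both WT and in Ada3-3KR (1.28) and fell in Gcn5m (-1.65) and Spt7m (-0.36), while PHO90 rose in every strain.

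Gcn5m cells had far less RNA of most phosphate genes than WT, already in glucose and more so in sucrose. PHO84 had 245, 251 and 239.6 FPKM in Gcn5m in glucose, against 742, 759 and 729 in WT, 3.03-fold lower in mean FPKM (-1.60 ± 0.07). SPL2 had 3.73, 3.65 and 3.41 FPKM against 13.4, 11.3 and 12.9, which is 3.48-fold in mean FPKM and -1.55 ± 0.09 on the log2(FPKM + 1) scale, a scale that understates the change of so low a gene. No library of either gene came near the WT range. All 3 VTC genes were lower, VTC3 at 67.9, 70.9 and 80.1 FPKM against 188, 179 and 188 (-1.33 ± 0.07), VTC1 at 551, 528 and 474 against 1190.4, 1104 and 1138 (-1.15 ± 0.06), and VTC4 at 137, 141 and 137 against 276, 278 and 276 (-0.996 ± 0.04). PHM6 (-1.08 ± 0.16), PHO91 (-0.90 ± 0.07) and PHO90 (-0.38 ± 0.04) were lower as well. Against that direction, PHO87 was higher, at 38.2 to 46.8 FPKM against 30.5 to 33.2 (0.38 ± 0.06), and PHO89, at 181 to 194 FPKM against 178 to 181, did not pass (0.05 ± 0.05, adjusted p = 0.351), although it did after quantile normalization (0.18, adjusted p = 0.00141) and after rescaling to a common median (0.13, adjusted p = 0.0136). Of 10 members 8 were lower and 1 higher, where 41.2% of all genes were called lower and 20.8% higher (1789 lower and 1708 higher with quantile normalization, against 2405 and 1216). Differences of at least 2-fold on the log2(FPKM + 1) scale were called for 5 members, against 2.07% of all genes. VTC4, at -0.996, was not among them, though its mean was 138.3 against 276.8 FPKM. The median difference was -1.04 over the members and -0.10 over all genes.

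In sucrose the gap to WT widened at the high-affinity transporters. PHO84 had 77.3, 81.1 and 74.2 FPKM in Gcn5m against 974, 997 and 910.2 in WT, a 12.4-fold lower mean (-3.61 ± 0.07), and only 2 of 5841 genes had a more negative value. PHO89 had 146, 146 and 139 FPKM against 825, 818 and 798, 5.66-fold lower (-2.49 ± 0.05). SPL2, at 2.48, 2.93 and 2.35 FPKM against 20.5, 21.3 and 22.0, was 8.22-fold lower in mean FPKM (-2.64 ± 0.09). For each of these genes the highest Gcn5m library lay several-fold under the lowest WT library. PHM6 had 6.34, 7.88 and 6.40 FPKM against 42.3, 46.0 and 44.2 (-2.53 ± 0.16), and VTC3 had 34.1, 35.1 and 35.6 against 173, 167 and 203 (-2.34 ± 0.07). VTC4 (-1.55 ± 0.04) and VTC1 (-1.35 ± 0.06) were lower by less, and so were PHO91 (-0.57 ± 0.07) and PHO90 (-0.33 ± 0.04). PHO87 again was higher, by 0.19 ± 0.06, a call lost without WT in sucrose replicate 1 (0.15, adjusted p = 0.0628). The 9 members called lower and the 1 called higher stand against 42.6% and 28.0% of all genes, and the 7 lower by at least 2-fold against 3.46%. By rank from the most negative value among 5841 genes, PHO84 stood at 3, SPL2 at 10, PHM6 at 12, PHO89 at 13 and VTC3 at 17, and the median difference was -1.94 over the members and -0.09 over all genes.

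Spt7m showed the same directions with smaller differences at PHO84. In glucose PHO84 had 434, 409 and 419 FPKM (-0.82 ± 0.07 against WT) and SPL2 had 3.12, 3.58 and 4.05 (-1.56 ± 0.09). VTC3 (-1.13 ± 0.07), VTC1 (-0.84 ± 0.06), VTC4 (-0.70 ± 0.04), PHM6 (-0.85 ± 0.16), PHO91 (-0.61 ± 0.07) and PHO90 (-0.24 ± 0.04) were lower. PHO87 was higher (0.34 ± 0.06), and PHO89, at 176 to 179 FPKM, did not pass (-0.02 ± 0.05, adjusted p = 0.740). Thus 8 members were lower and 1 higher, where 37.5% of all genes were called lower and 15.7% higher (1448 lower and 1338 higher with quantile normalization, against 2191 and 917), and 2 members, SPL2 and VTC3, were lower by at least 2-fold, against 0.924%. The median difference was -0.76 over the members and -0.10 over all genes.

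In sucrose, PHO84 in Spt7m had 295, 314 and 381 FPKM against 910.2 to 997 in WT (-1.55 ± 0.07), and PHO89 had 238, 255 and 279 against 798 to 825 (-1.66 ± 0.05). PHM6, at 6.57, 10.2 and 7.19 FPKM against 42.3 to 46.0, was the furthest from WT (-2.35 ± 0.16), followed by SPL2 at 4.11, 4.69 and 4.46 against 20.5 to 22.0 (-2.04 ± 0.09). Neither gene's libraries approached the WT range. VTC3 (-1.86 ± 0.07), VTC4 (-1.22 ± 0.04), VTC1 (-0.90 ± 0.06), PHO91 (-0.50 ± 0.07) and PHO90 (-0.31 ± 0.04) were lower, and PHO87 was higher (0.22 ± 0.06). These 9 lower members and 1 higher stand against 41.5% and 28.8% of all genes, and the 6 lower by at least 2-fold against 2.45%; the median was -1.38 over the members and -0.08 over all genes. Gcn5m and Spt7m were compared with the same WT libraries, so their differences from WT are not independent of each other.

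**Figure D4:**
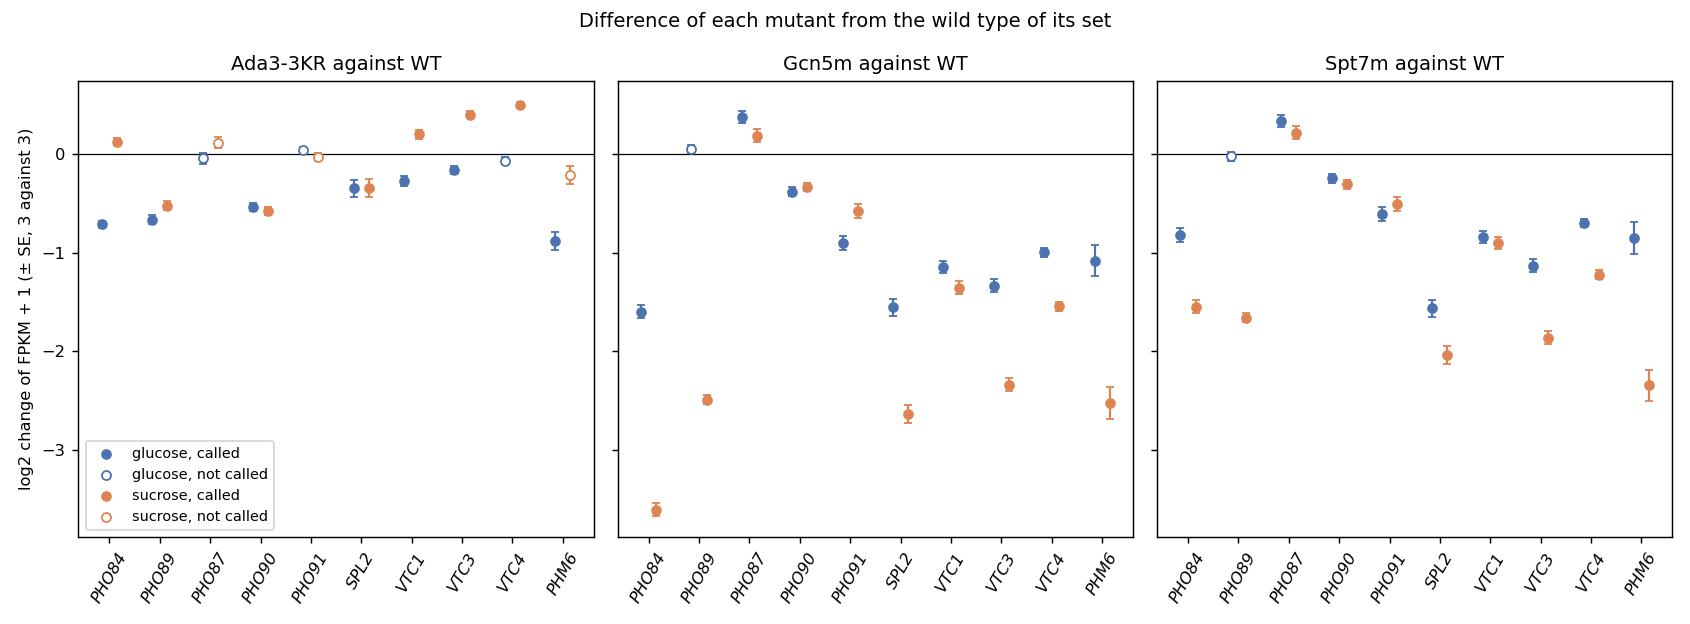
Log2 difference of FPKM + 1 between each mutant and the WT of its set (y axis, ± SE, 3 libraries against 3) for the 10 genes (x axis) in glucose and sucrose; open circles did not pass the test. PHO84 in sucrose lay at -3.61 in Gcn5m and -1.55 in Spt7m but at 0.13 in Ada3-3KR, and PHO87 lay above 0 in both bromodomain mutants.

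Set directly against each other, the bromodomain mutants differed, among the 10 members, most at PHO84, which was lower in Gcn5m than in Spt7m by 0.78 ± 0.07 in glucose and by 2.07 ± 0.07 in sucrose, a 4.25-fold difference in mean FPKM. PHO89 was lower in Gcn5m in sucrose by 0.83 ± 0.05 but did not pass in glucose (0.07 ± 0.05, adjusted p = 0.272). SPL2 was lower by 0.60 ± 0.09 in sucrose with 0.01 ± 0.09 in glucose (adjusted p = 0.956). The VTC genes were lower in Gcn5m in both sugars, by 0.20 to 0.31 in glucose and by 0.32 to 0.48 in sucrose; the glucose call of VTC3 (-0.20 ± 0.07, adjusted p = 0.0336) was lost without Gcn5m in glucose replicate 1 (-0.15, adjusted p = 0.141) or 2 (-0.18, adjusted p = 0.1003) and without Spt7m in glucose replicate 1 (-0.20, adjusted p = 0.0880) or 3 (-0.18, adjusted p = 0.109). PHO91 was lower in glucose (-0.30 ± 0.07). PHO90 was lower in glucose (-0.13 ± 0.04, adjusted p = 0.0265), a call lost without Gcn5m in glucose replicate 1 (-0.12, adjusted p = 0.0835) or 3 (-0.12, adjusted p = 0.0740) and without Spt7m in glucose replicate 1 (-0.11, adjusted p = 0.115) or 2 (-0.14, adjusted p = 0.0559). PHO87 (0.04 ± 0.06 in glucose and -0.03 ± 0.06 in sucrose) and PHM6 (-0.23 ± 0.16 and -0.18 ± 0.16) passed in neither sugar, which does not show that their levels were equal. In each sugar 6 of 10 members were lower in Gcn5m and 0 higher, where 13.6% of all genes were called lower in glucose and 11.4% in sucrose, and 14.0% and 8.27% higher.

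The sucrose effect itself turned in the bromodomain mutants at several members. In Gcn5m, PHO84 fell by 1.65 ± 0.07 on going to sucrose (from 239.6 to 251 FPKM to 74.2 to 81.1), and PHO89 fell by 0.38 ± 0.05 (from 181 to 194 to 139 to 146), where both rose in WT. VTC3 (-1.04 ± 0.07), PHM6 (-0.93 ± 0.16), VTC4 (-0.65 ± 0.04), VTC1 (-0.38 ± 0.06) and SPL2 (-0.36 ± 0.09) fell, while PHO87 (0.67 ± 0.06) and PHO90 (0.56 ± 0.04) rose as in WT. PHO91, at 44.2 to 50.8 FPKM in glucose and 49.8 to 51.5 in sucrose, did not pass (0.07 ± 0.07, adjusted p = 0.391), but its sign turned and it passed after quantile normalization (-0.19, adjusted p = 0.0197) and after median rescaling (-0.19, adjusted p = 0.0266). The 7 members that fell and 2 that rose stand against 21.8% and 52.2% of all genes (2333 lower and 1721 higher with median rescaling, against 1275 and 3048). Falls of at least 2-fold on the log2(FPKM + 1) scale were those of PHO84 and VTC3, 2 members against 2.17% of all genes. PHM6 fell short of that on this scale, though its mean went from 14.2 to 6.87 FPKM. Relative to the median gene, PHO84 fell by 1.84, VTC3 by 1.23 and PHO89 by 0.57, and PHO87 rose by 0.47.

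In Spt7m, PHO84 fell (-0.36 ± 0.07) while PHO89 rose (0.53 ± 0.05), PHO87 (0.74 ± 0.06) and PHO90 (0.46 ± 0.04) rose, and PHM6 (-0.99 ± 0.16), VTC3 (-0.76 ± 0.07), VTC4 (-0.62 ± 0.04) and VTC1 (-0.24 ± 0.06) fell. SPL2 was called higher (0.25 ± 0.09, adjusted p = 0.0190), from 3.12 to 4.05 FPKM to 4.11 to 4.69, but it turned to -0.018 (adjusted p = 0.865) with median rescaling. That call of SPL2 was also lost without Spt7m in glucose replicate 1 (0.17, adjusted p = 0.111) or Spt7m in sucrose replicate 2 (0.21, adjusted p = 0.0717). PHO91 was at the threshold (-0.16 ± 0.07, adjusted p = 0.04997) and was lost without Spt7m in glucose replicate 1 (-0.14, adjusted p = 0.130) or 3 (-0.14, adjusted p = 0.137) and without Spt7m in sucrose replicate 1 (-0.14, adjusted p = 0.134) or 2 (-0.14, adjusted p = 0.136). So 4 members were called higher and 6 lower, against 51.6% and 24.4% of all genes (1856 higher and 2473 lower with median rescaling, against 3013 and 1424). Relative to the median gene, PHM6 fell by 1.18, VTC3 by 0.95, VTC4 by 0.81 and PHO84 by 0.55, and PHO89 rose by 0.34.

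The difference between the sucrose effects of mutant and WT was tested directly. In Gcn5m it was -2.54 ± 0.07 at PHO89 (adjusted p = 8.04e-15), the second most negative value among 5841 genes, and -2.02 ± 0.09 at PHO84 (adjusted p = 1.27e-11). PHM6 (-1.45 ± 0.23), SPL2 (-1.08 ± 0.13), VTC3 (-1.005 ± 0.10) and VTC4 (-0.55 ± 0.06) followed, and PHO91 went the other way (0.33 ± 0.10, adjusted p = 0.0131). PHO90 (0.04 ± 0.06, adjusted p = 0.596) did not pass. VTC1 (-0.21 ± 0.09, adjusted p = 0.0695) passed without Gcn5m in glucose replicate 3 (-0.27, adjusted p = 0.0182), Gcn5m in sucrose replicate 2 (-0.26, adjusted p = 0.0318) or WT in sucrose replicate 3 (-0.25, adjusted p = 0.0411), and PHO87 (-0.19 ± 0.09, adjusted p = 0.103) without Gcn5m in glucose replicate 2 (-0.25, adjusted p = 0.0313). Quantile normalization also gave calls to VTC1 (-0.33, adjusted p = 0.000694) and PHO87 (-0.22, adjusted p = 0.0497). In Spt7m the difference was called for PHO89 (-1.64 ± 0.07), PHM6 (-1.50 ± 0.23), PHO84 (-0.73 ± 0.09), VTC3 (-0.73 ± 0.10), VTC4 (-0.52 ± 0.06) and SPL2 (-0.47 ± 0.13). PHO87, PHO90, PHO91 and VTC1, between -0.12 and 0.10, did not pass. Of these, VTC1 (-0.26, adjusted p = 0.00396) and PHO90 (-0.14, adjusted p = 0.0328) passed after quantile normalization. In all, 6 members were lower and 1 higher in Gcn5m, against 20.7% and 20.9% of all genes, and 6 lower and 0 higher in Spt7m, against 23.5% and 23.9%. Values of -1 or lower were called for 5 members in Gcn5m and 2 in Spt7m, against 1.11% and 1.25% of all genes.

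Other genes of the pathway were read from 3 lists that hold none of the members, although VTC2, PPN1 and GIT1 stand in the first and the third and PHO81 in the first and the second. The list of other genes induced through Pho4 had 11 genes, among them the acid phosphatase genes PHO5, PHO11 and PHO12, close copies between which reads may be split, VTC2, whose product takes the place of Vtc3 in the VTC complex, and the signalling gene PHO81. Of these, 10 were lower and 0 higher in Gcn5m than in WT in glucose, and 9 lower and 1 higher in sucrose, where 41.2% and 42.6% of all genes were lower; in Spt7m the counts were 9 and 0, and 9 and 1, where 37.5% and 41.5% were lower. VTC2 was lower in Gcn5m by 0.83 ± 0.05 and 0.92 ± 0.05 in glucose and sucrose and in Spt7m by 0.76 ± 0.05 and 0.72 ± 0.05. Unlike VTC3, VTC2 did not pass the test of the mutant's sucrose effect against that of WT (-0.09 ± 0.07 in Gcn5m, adjusted p = 0.342, and 0.04 ± 0.07 in Spt7m, adjusted p = 0.677). In Ada3-3KR 6 of this list were lower and 2 higher in glucose, and 6 lower and 5 higher in sucrose, against 22.1% and 40.2%, and 22.2% and 33.8% of all genes. With sucrose, 3 rose and 4 fell in the Ada3 WT, 8 and 2 in Ada3-3KR, 1 and 5 in the bromodomain WT, 2 and 7 in Gcn5m and 3 and 5 in Spt7m. Over all genes the same sucrose effects were called higher and lower for 32.7% and 13.9%, 32.9% and 17.7%, 50.9% and 15.7%, 52.2% and 21.8%, and 51.6% and 24.4%, in that order, with the splits after rescaling given above.

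Among 10 genes of phosphate signalling, 6 were lower and 0 higher in Gcn5m in glucose and 8 and 1 in sucrose, 8 and 0 in Spt7m in glucose and 5 and 1 in sucrose, while in Ada3-3KR 5 were higher in glucose and 7 in sucrose and 0 were lower in either. Against 41.2% and 42.6% of all genes lower in Gcn5m, 37.5% and 41.5% lower in Spt7m and 40.2% and 33.8% higher in Ada3-3KR, several of these counts lie near the background. PHO4, the activator gene, had 35.1, 33.2 and 34.6 FPKM in bromodomain WT in glucose and 62.1, 62.7 and 56.9 in sucrose. In Gcn5m it had 22.4, 20.4 and 23.0 in glucose and 35.8, 37.9 and 40.6 in sucrose, and in Spt7m 26.7, 22.2 and 26.0, and 36.2, 37.2 and 35.4. It was thus lower than WT in Gcn5m (-0.62 ± 0.07 and -0.66 ± 0.07) and Spt7m (-0.45 ± 0.07 and -0.72 ± 0.07), but it rose with sucrose in Gcn5m (0.77 ± 0.07) where PHO84 fell. In Ada3-3KR, PHO4 was higher than WT in glucose (0.33 ± 0.08) and sucrose (0.56 ± 0.08). The inhibitor gene PHO81 was lower in Gcn5m by 0.84 ± 0.06 and 0.99 ± 0.06 and in Spt7m by 0.67 ± 0.06 and 0.79 ± 0.06. In sucrose against glucose, 3 signalling genes rose and 1 fell in the Ada3 WT, 5 and 1 in Ada3-3KR, 4 and 0 in the bromodomain WT, 7 and 2 in Gcn5m and 7 and 0 in Spt7m, and in both WT the count of rises is near or under the share of all genes (32.7% and 50.9%).

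The third list, other phosphate transport and polyphosphate turnover, had 10 measured genes of 11. In Gcn5m 6 were lower and 1 higher in glucose and 7 and 2 in sucrose, and in Spt7m 6 and 1 in both sugars; in Ada3-3KR 4 were lower and 4 higher in glucose, and 3 and 7 in sucrose. The shares of all genes lower were 41.2% and 42.6% in Gcn5m and 37.5% and 41.5% in Spt7m. In Ada3-3KR, 22.1% of all genes were lower and 40.2% higher in glucose, and 22.2% and 33.8% in sucrose. Several counts of this list are thus also near the background, while the 7 of 10 higher in Ada3-3KR in sucrose stand above it. With sucrose, 3 rose and 4 fell in the Ada3 WT, 7 and 1 in Ada3-3KR, 4 and 1 in the bromodomain WT, 2 and 4 in Gcn5m and 3 and 3 in Spt7m, to be read against the shares of all genes given with the first list. VTC5, which encodes a further subunit of the VTC complex, had 53.5, 56.6 and 51.1 FPKM in bromodomain WT in sucrose and 21.4, 21.6 and 19.7 in Gcn5m (-1.32 ± 0.07). In Spt7m in sucrose it had 20.2, 21.4 and 20.8 (-1.33 ± 0.07). All of its Gcn5m and Spt7m libraries in sucrose lay under all of those WT libraries, as for the other subunit genes. In Ada3-3KR, VTC5 lay above WT instead. It had 76.7 to 81.6 FPKM against 47.6 to 50.3 in glucose, where VTC1 and VTC3 were lower than WT. In sucrose it had 81.7 to 89.0 against 72.7 to 78.9. PIC2, a gene of mitochondrial phosphate import, was higher than WT in sucrose in Gcn5m (0.79 ± 0.04) and Spt7m (0.64 ± 0.04).

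The members did not all vary together. Over the 10 group means, each centred on the mean of its set, VTC3 and VTC4 had a Pearson correlation of 0.991, and VTC1 correlated with them at 0.966 and 0.960. PHO84 correlated with the 3 VTC genes at 0.876 to 0.897 and with PHO89 at 0.631, and PHO87 correlated with PHO84 at -0.240. These are descriptions over 10 points that share the WT libraries of each set. Even within the VTC complex the ratio moved: VTC3 over VTC4 in FPKM was 0.669 ± 0.021 (SD, n = 3) in bromodomain WT in glucose and 0.704 ± 0.101 in sucrose, but 0.528 ± 0.051 and 0.398 ± 0.004 in Gcn5m and 0.493 ± 0.031 and 0.445 ± 0.013 in Spt7m. In the Ada3 set it stayed between 0.516 and 0.584 over all 12 libraries. The ratio of PHO84 to the low-affinity gene PHO90 was 9.34 ± 0.60 in bromodomain WT in glucose and 8.37 ± 0.28 in sucrose, and in Gcn5m it went from 4.01 ± 0.07 to 0.855 ± 0.054. PHO90 therefore had more RNA per length than PHO84 in Gcn5m in sucrose, at 88.4 to 94.4 against 74.2 to 81.1 FPKM, which was so in no other group.

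Outside the members, the genes whose group means most resembled those of PHO84 by the same correlation, among 5421 genes whose mean reached 5 FPKM in both sets, were SPC25 (0.932), ERG11 (0.925), CYB5 (0.923), YLR030W (0.917) and ATF2 (0.906). For PHO89 they were ARO1 (0.965), HPT1 (0.956), PRO1 (0.930), TRZ1 (0.920) and CYS4 (0.913). For PHO90 they were CHD1 (0.981), NDT80 (0.973), WSC3 (0.967), VHR2 (0.965) and YER137C (0.959). The 3 lists had no gene in common.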

How the data were processed

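The authors deposited gene FPKM values, 1 table per set, which entered the fits unchanged. Tools named in the submitters' processing notes are StringTie 1.3.3b, HISAT2 2.1.0 and cutadapt 1.16, with build R64; strand setting, filters and annotation are not given in the sources used here. Per the labels, an Illumina TruSeq kit and 1 µg of total RNA went into each library. Read counts were not used here, and depth is unknown. Spreadsheet dates in place of 2 gene names were restored.

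The 10 members, the other gene lists and the motifs were chosen with earlier results of these data known; by the naming rule all members were described in every comparison, with called genes of the lists where useful. FPKM were taken as log2(FPKM + 1), and genes whose mean over a set reached 1 FPKM were fitted with limma 3.58.1 (R 4.3.3; a mean per group, variance trend), with Benjamini-Hochberg adjustment per comparison over all genes tested. The procedure was run on simulated data for the comparisons between groups, but not for the differences between sucrose effects. No result of that run is used here. The smallest p of an exact permutation of 3 libraries against 3 is 0.1. Near-identical copies were searched with BLAST 2.17.0; Python 3.11.15 and matplotlib 3.10.9 drew the figures. Results were recomputed with a pseudocount of 0.1, without a filter, with a filter of 5 FPKM, after quantile normalization, after median rescaling, with the replicate number as a block, with the compared groups alone, and without each library in turn.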

Additional observations from a re-analysis of the deposited data

Results flagged for a closer look

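These results are listed because the sucrose effect of a mutant differed from that of the WT of its set in a direct test of the difference (limma, log2 scale). In Ada3-3KR the difference was 0.84 at PHO84, 0.47 at VTC1, 0.56 at VTC3, 0.57 at VTC4 and 0.67 at PHM6. In Gcn5m it was -2.02 at PHO84, -2.54 at PHO89, 0.33 at PHO91, -1.08 at SPL2, -1.005 at VTC3, -0.55 at VTC4 and -1.45 at PHM6. In Spt7m it was -0.73 at PHO84, -1.64 at PHO89, -0.47 at SPL2, -0.73 at VTC3, -0.52 at VTC4 and -1.50 at PHM6. At PHO84, VTC3, VTC4 and PHM6 the difference was positive in Ada3-3KR and negative in both bromodomain mutants; the Ada3 set was not tested against the bromodomain set.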

How the results depend on the processing

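Of 160 values (10 members in 16 comparisons), 137 stayed on the same side of the threshold under every alternative tried, and no called value among them changed direction. A change of sign between values that did not pass was not counted. Of the 80 called values of at least 0.5 on the log2 scale, 79 kept call and direction throughout, PHM6 in the bromodomain WT being the exception. A pseudocount of 0.1 and a filter of 5 FPKM changed no call; with no filter PHO91 in Spt7m in sucrose against glucose lost its call and VTC4 in the bromodomain WT gained one. Quantile normalization took away 2 calls and added 10, median rescaling took away 2 and added 6, and leaving out a library took away the call of 9 values and gave one to 6. Values that turned and were called either before or after the turn were those of PHO91 in Gcn5m in sucrose against glucose (-0.19 with quantile normalization and -0.19 with median rescaling) and of SPL2 in Spt7m (-0.018 with median rescaling). Rescaling moved some counts of all genes by over 1.5 times. With quantile normalization the counts called higher and lower in sucrose against glucose were 1100 and 1502 in the Ada3 WT, 1515 and 1849 in the bromodomain WT, 1820 and 2191 in Gcn5m and 1974 and 2280 in Spt7m; with median rescaling they were 1032 and 1784, 1309 and 2243, 1721 and 2333, and 1856 and 2473. In Spt7m against WT in glucose 2191 genes were lower, 1448 with quantile normalization and 1438 with median rescaling. Genes called higher in Gcn5m than in Spt7m in sucrose, 483 in all, numbered 286 to 316 without Gcn5m in sucrose replicate 1 or 2 or Spt7m in sucrose replicate 3.

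The labels do not say that a replicate number marks a shared culture or day, and not every same-numbered pair correlated, so the numbers were not taken to pair the samples. These correlations were taken over genes on the deviations of each library from the mean of its group, between libraries of different groups. They are not correlations of whole libraries. Same-numbered libraries had such correlations of -0.25 to 0.408 (median 0.135) and different-numbered ones of -0.412 to 0.543 (median -0.111) in the Ada3 set, where 7 of 12 libraries were closest to their own number. In the bromodomain set the ranges were -0.428 to 0.336 (median -0.0319) and -0.423 to 0.413 (median 0.0106), with 6 of 18. With the replicate block, the number of members called was 9 in the Ada3 WT (10 without the block), 8 in Ada3-3KR against WT in sucrose (7), 8 for the Gcn5m sucrose effect against that of WT (7) and 9 in Spt7m in sucrose against glucose (10), and it was the same in the other 12 comparisons. The block took the call from VTC3 in the Ada3 WT (adjusted p = 0.0514) and PHO91 in Spt7m (adjusted p = 0.0571) and gave one to PHM6 in Ada3-3KR against WT in sucrose (adjusted p = 0.0476) and to VTC1 in the Gcn5m effect against that of WT (adjusted p = 0.0485). With the compared groups alone in the fit, 4 values lost their call and 0 gained one. Leaving out a library took the number of members called in Gcn5m against Spt7m in glucose from 6 to between 4 and 5. In the other comparisons it moved that number by at most 2. Depth is unknown, so counting error could not be set apart from other spread.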
